A study of Mus musculus with 62 samples.

Results

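Aldehyde dehydrogenases oxidise reactive aldehydes to carboxylic acids, and 10 of the mouse genes that encode them were followed here in 3 tissues (liver, striatum and prefrontal cortex) from female mice given polychlorinated biphenyls (PCBs), a family of persistent industrial chemicals. The genes were Aldh1a1, Aldh1a7, Aldh1b1, Aldh2, Aldh3a2, Aldh4a1, Aldh5a1, Aldh6a1, Aldh7a1 and Aldh9a1, found by their Entrez identifiers among 18821 genes listed in any of the 3 count tables. All 10 were listed in every tissue. Aldh1a1 was chosen by its own measured levels, selected on being higher in the prefrontal cortex at the highest dose than in vehicle, so its values in that tissue are given as a description without a test.

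Each enzyme of the family uses NAD or NADP to convert an aldehyde to the matching acid, and the substrates divide the members into groups. Aldh1a1 makes retinoic acid from retinaldehyde in the cytosol and, in the brain, is best known as a marker of a subset of midbrain dopamine neurons, whose axons reach the striatum. Aldh2 clears acetaldehyde in mitochondria, and the liver is the main site of that reaction. Other members each close a step of amino acid, carnitine or lipid metabolism, among them the removal of GABA, the main inhibitory transmitter of the brain.

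The animals were C57BL/6 females that received a PCB mixture named MARBLES by mouth at 0.1, 1 or 6 mg/kg, or vehicle alone. The liver had 4 vehicle, 4 low-dose (0.1 mg/kg), 6 middle-dose (1 mg/kg) and 6 high-dose (6 mg/kg) libraries, and each brain region had 4, 5, 6 and 6. All groups were of this sex and strain, and the labels name no allele. Brain samples were tissue punches, and the age, the number of doses and the time after dosing were not given in the sources used here. RNA sequencing gave 7381179 to 10203247 counts per liver library, 8722232 to 12135200 per prefrontal library and 8283032 to 12019651 per striatal library. Libraries are named below by the number in their title, and no label says that libraries of a group came from separate animals, so p-values measure the spread between these libraries.

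The tissue labels were set against marker genes. The hepatocyte markers Alb, Apoa1, Ttr and Cps1 summed to at least 74295 CPM (a gene's share of the library's counts, on the usual CPM scale and with scaling factors within a tissue) in every liver library. The cortical projection neuron markers Slc17a7, Tbr1 and Neurod6 summed to 1219 to 2129 CPM in the prefrontal cortex. In the striatum these cortical markers summed to 1056 CPM in vehicle library 8, to 811 and 1549 CPM in libraries 46 and 50 of the middle dose, and to between 59.8 and 558 CPM in the other 18. Markers of striatal projection neurons, among them Drd1 and Drd2, summed to 1961 to 4889 CPM in the striatum and were also present in the prefrontal cortex at 672 to 2155 CPM.

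Aldh1a1 and Aldh1a7 are neighbouring copies on chromosome 19 whose transcripts resemble each other most within the family, and the stretches just before their start sites are shown because this pair is the closest in sequence. On GRCm38.p6, Aldh1a1 spans chr19:20492583-20643463 on the plus strand and Aldh1a7 spans chr19:20692953-20727556 on the minus strand, with 49.49 kilobases between their gene models. The sequences are RefSeq's, 150 bases up to the start, on the strand of the gene, at chr19:20601818-20601967 for Aldh1a1 (a start inside the longest gene model) and at chr19:20727557-20727706 for Aldh1a7. Capitals mark CCAAT and the octamer ATGCAAAT.
Aldh1a1: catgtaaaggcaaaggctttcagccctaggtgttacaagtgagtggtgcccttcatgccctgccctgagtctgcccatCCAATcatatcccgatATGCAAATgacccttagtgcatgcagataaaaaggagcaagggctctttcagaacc
Aldh1a7: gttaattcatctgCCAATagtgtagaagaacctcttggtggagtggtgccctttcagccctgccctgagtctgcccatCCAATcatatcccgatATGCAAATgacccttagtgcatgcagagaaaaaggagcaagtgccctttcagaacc
Over 139 aligned bases of these windows 124 were identical, or 89.2%, and over 2015 aligned bases of the longest protein-coding transcripts 1808 were identical, or 89.7%.

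Both windows hold CCAAT starting 72 bases before the start and ATGCAAAT starting 56 bases before it, and Aldh1a7 holds a further CCAAT at 137 bases. Both strands were searched, and the motifs do not overlap each other. Among 32851 RefSeq windows of the same length, 24.5% held CCAAT, 0.998% held ATGCAAAT and 0.417% held both. The letters TATAAA, found in 7.57% of windows, and the nuclear receptor half-site AGGTCA, found in 8.58%, were in neither. Between the transcripts, 151 of the 2017 stretches of 50 bases in Aldh1a7 (7.49%) were also in Aldh1a1, where they made up 6.54% of 2309. Reads from such stretches could be assigned to either gene. Aldh1a1 is the more abundant of the pair, so the counts of Aldh1a7 are uncertain, above all in the brain, and by how much was not measured. The other 8 members shared no stretch of 50 bases with another member.

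The remaining members lie apart. Aldh2 is at chr5:121566027-121593824 on the minus strand, and Aldh1b1, its close mitochondrial relative, at chr4:45799022-45804608 on the plus strand. Aldh3a2, which oxidises fatty aldehydes at the endoplasmic reticulum, is at chr11:61223417-61267528 on the minus strand. Aldh9a1, an enzyme of carnitine synthesis, is at chr1:167349963-167368530 on the plus strand. Aldh4a1, the last step of proline breakdown, is at chr4:139622871-139649691 on the plus strand. Aldh5a1, which oxidises succinic semialdehyde in the GABA shunt, is at chr13:24907579-24937661 on the minus strand. Aldh6a1, an enzyme of valine and thymine breakdown, is at chr12:84430717-84451024 on the minus strand, and Aldh7a1, on chromosome 18, serves lysine breakdown. The gene models of Aldh1a1, Aldh5a1, Aldh6a1 and Aldh7a1 overlap listed genes (the long noncoding RNAs E030003E18Rik and C730002L08Rik, 4932702P03Rik and 9330162012Rik, and the coding genes Bbof1 and Phax), and whether counting used strand is not given in the sources used here.

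Without PCBs, the family was far more abundant in the liver than in either brain region, with Aldh5a1 as the exception. With all 12 vehicle libraries scaled together, Aldh2 stood at 4692 ± 825 CPM in the liver, 76.8 ± 10.7 CPM in the prefrontal cortex and 104 ± 9.64 CPM in the striatum (SD, n = 4 each). Aldh1a1 stood at 751 ± 127, 31.5 ± 4.44 and 23.7 ± 8.98 CPM. Aldh1a7 stood at 222 ± 36.4 CPM in the liver and was close to absent in the brain, at 0.547 ± 0.462 and 0.268 ± 0.129 CPM. A lower level in bulk tissue can mean fewer cells of a type or less RNA per cell, and these cannot be told apart.

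Among 14161 genes tested between vehicle tissues by edgeR's quasi-likelihood test, 8 of the 9 members other than Aldh1a1 were higher in the liver than in the prefrontal cortex, where 39.4% of all genes were higher, and 9 of 10 were higher in the liver than in the striatum, where 39.4% of all genes were too. The log2 difference for Aldh2 was 5.93 (SE 0.198) against the prefrontal cortex and 5.50 (SE 0.193) against the striatum. For Aldh1a1 it was 4.57 (SE 0.262) and 4.98 (SE 0.267), the former without a test because its prefrontal vehicle libraries were used to pick it. Aldh5a1 was the member that did not pass, at 106 ± 6.03 CPM in the liver, 95.6 ± 6.49 CPM in the prefrontal cortex and 122 ± 11.1 CPM in the striatum. Its log2 difference was 0.15 (SE 0.105, adjusted p = 0.182) and -0.20 (SE 0.105, adjusted p = 0.0828), and scaling by library totals alone, which moves every liver difference from the prefrontal cortex by -0.60 and from the striatum by -0.69, turned the former to -0.44 (adjusted p = 0.00406). The difference from the striatum passed with that scaling, at -0.88 (adjusted p = 3.75e-06), and with DESeq2, at -0.23 (adjusted p = 0.0290), with the lower level in the liver in both.

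The brain regions differed from each other in fewer members. Aldh9a1 was higher in the striatum, at 37.1 ± 3.50 against 22.6 ± 1.99 CPM, with a log2 difference of 0.72 (SE 0.130, adjusted p = 0.00173). Aldh5a1 was higher there as well, by 0.36 (SE 0.104, adjusted p = 0.0314), but not when prefrontal library 7, 4 or 3 or striatal library 4 or 3 was left out (adjusted p = 0.113, 0.0716, 0.0710, 0.0912 and 0.0538). These were 2 of the 9 members other than Aldh1a1, against 6.71% of all genes higher in the striatum. Aldh4a1 and Aldh2 were 0.47 and 0.44 higher on the log2 scale without passing (adjusted p = 0.0538 and 0.0872), with every striatal library above the prefrontal ones. In all, 4 of these 9 members stood wholly above in the striatum in this way, beside 10.7% of all genes. Aldh1a1 differed by -0.41 (SE 0.236, given without a test), with its lowest striatal value in library 8, which carried the high cortical marker sum.

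**Figure D1:**
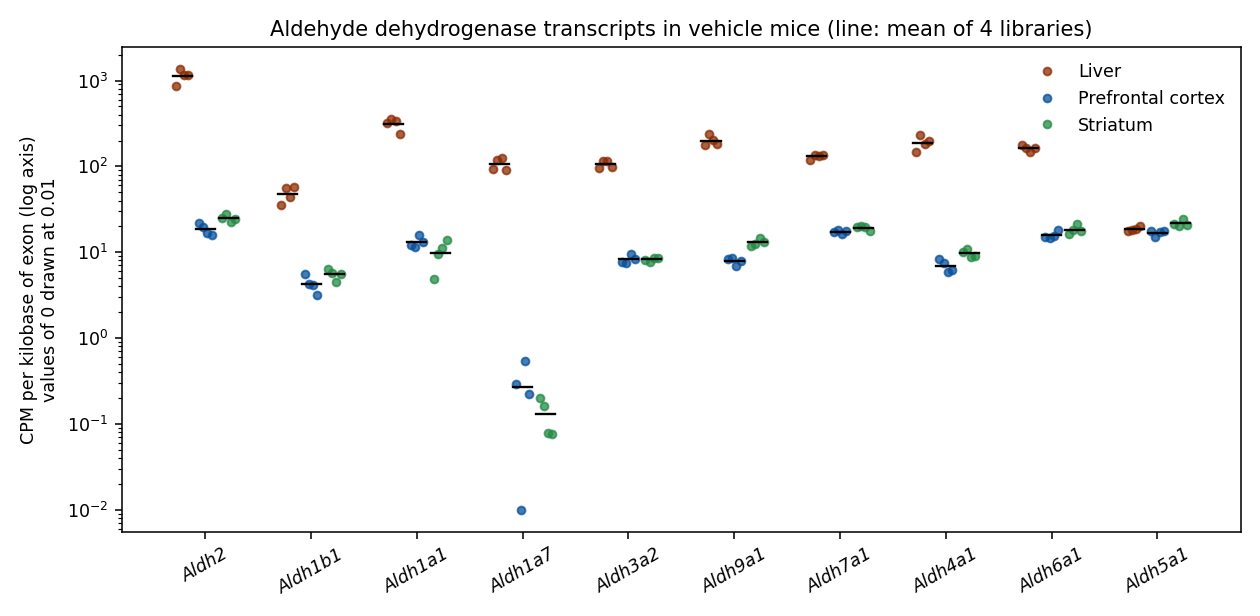
CPM per kilobase of exon (log axis) for the 10 genes in the vehicle libraries of each tissue, scaled together; points are libraries, lines are means of 4, and the prefrontal value of 0 for Aldh1a7 is drawn at 0.01. Liver points lie well above the brain points for every gene but Aldh5a1, whose liver points overlap the striatal ones, and Aldh1a7 is below 1 in the brain.

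Within a tissue, levels of different genes were ordered per kilobase of exon. In vehicle liver Aldh2 led with 644 ± 98.5 CPM per kilobase, followed by Aldh1a1 with 179 ± 24.8, and the libraries of each did not overlap the next gene. Aldh9a1, Aldh4a1 and Aldh6a1 followed at 114, 107 and 93.8 CPM per kilobase, each overlapping its neighbour. Aldh7a1, Aldh1a7 and Aldh3a2 formed an overlapping run at 74.6, 61.3 and 60.7, and Aldh1b1 at 27.3 and Aldh5a1 at 10.8 were lowest. Aldh5a1 was thus last in the liver but among the leading members in the brain.

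In the vehicle prefrontal cortex Aldh2, Aldh7a1, Aldh5a1, Aldh6a1 and Aldh1a1 ran from 20.8 to 14.8 CPM per kilobase, each overlapping the next. Aldh3a2, Aldh9a1 and Aldh4a1 overlapped at 9.27, 8.97 and 7.84, with Aldh1b1 at 4.79 and Aldh1a7 at 0.298. In the striatum Aldh2, Aldh5a1, Aldh7a1 and Aldh6a1 overlapped at 29.9 to 21.9 CPM per kilobase. Aldh9a1, Aldh1a1 and Aldh4a1 came next at 15.6, 11.8 and 11.5, then Aldh3a2 at 9.88, Aldh1b1 at 6.64 and Aldh1a7 at 0.155. Summed over members, the family made up 5001 ± 522 CPM in liver, 486 ± 13.9 CPM in prefrontal cortex and 622 ± 20.9 CPM in striatum on each tissue's own scale, and Aldh2 alone was 53.3%, 17.8% and 20% of that sum.

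Aldh1a1 in the prefrontal cortex was the reading for which the gene was picked. Its vehicle libraries 3, 4, 7 and 8 stood at 35.2, 42.6, 31.3 and 33.0 CPM, and its 6 high-dose libraries ran from 42.7 to 51.7 CPM with a median of 46.2. The groups did not overlap, by the narrow gap between vehicle library 4 and the lowest high-dose library, and 1.19% of all genes had a high-dose group wholly above vehicle. The fitted log2 change was 0.40 (SE 0.109), from 289 to 407 counts per vehicle library and 381 to 533 counts per high-dose library, and over the alternative settings it ran from 0.13, when the low-dose group was the reference, to 0.50.

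The other doses did not place Aldh1a1 on a steady line. Low-dose libraries 23, 24, 25, 28 and 29 stood at 40.0, 43.1, 53.7, 37.6 and 39.5 CPM, and the middle-dose libraries ran from 37.0 to 48.2 CPM with a median of 39.2. The highest prefrontal library was therefore a low-dose library, and both groups overlapped vehicle. Against vehicle, the low dose gave a log2 change of 0.27 (SE 0.113) and the middle dose 0.19 (SE 0.109). These are given without a test, since both contrasts share the 4 vehicle libraries by which the gene was picked.

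Markers of other cells were read beside these values. The oligodendrocyte markers Mbp, Mog, Mag and Mobp (4 of 4 listed) summed to 1270 to 2037 CPM in vehicle and 1552 to 2052 CPM in high-dose prefrontal libraries. Red cell markers (3 of 4 listed) summed to 42 to 583 CPM in vehicle and 12.1 to 80.0 CPM at the high dose. The dopaminergic markers Th, Slc6a3, Slc18a2 and Ddc (4 of 4 listed) were low, at 9.99 to 14.4 and 11.0 to 19.9 CPM, and astrocyte markers stood at 1535 to 1592 and 1460 to 1650 CPM. Their part in the Aldh1a1 values was not tested.

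**Figure D2:**
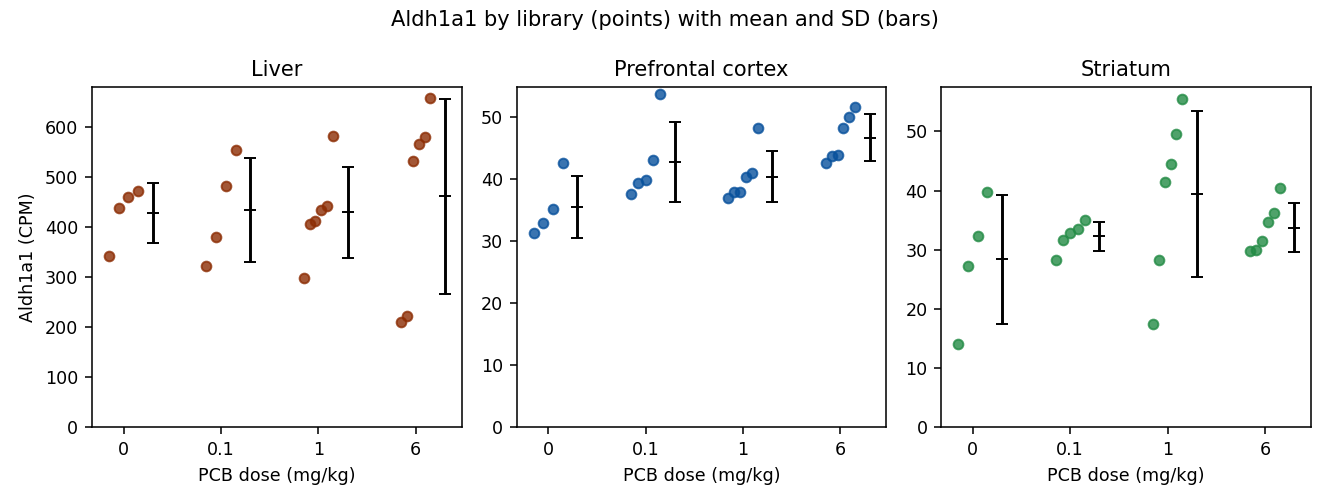
Aldh1a1 in CPM against dose in mg/kg for each tissue, with a point per library and bars for the mean and SD. The prefrontal high-dose points lie between 42.7 and 51.7, just above vehicle, while 2 of the 6 high-dose liver points sit near 211 and 222 and the striatal points at 1 mg/kg spread from 17.5 to 55.4.

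In the liver, where it is more abundant, Aldh1a1 split the high-dose group. Vehicle libraries 3, 4, 7 and 8 stood at 341, 472, 459 and 438 CPM, low-dose libraries 23, 25, 28 and 29 at 380, 322, 554 and 483 CPM, and middle-dose libraries ran from 299 to 582 CPM with a median of 423. At the high dose, libraries 52 and 58 stood at 222 and 211 CPM, below every vehicle library, and libraries 53, 54, 55 and 56 at 566, 581, 531 and 657 CPM, above every vehicle library. The group mean of 461 ± 194 CPM was therefore close to the vehicle mean of 428 ± 59.3 CPM, with a log2 change of 0.11 (SE 0.278, 95% interval -0.47 to 0.68). Without libraries 52 and 58, an alternative chosen after seeing the data, the change was 0.45 (SE 0.199, adjusted p = 0.363).

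In the striatum Aldh1a1 had its widest spread in the vehicle and middle-dose groups. Vehicle libraries 3, 4, 7 and 8 stood at 39.8, 32.4, 27.3 and 14.1 CPM, and low-dose libraries 23, 24, 25, 28 and 29 at 31.6, 35.0, 33.5, 32.9 and 28.3 CPM. Middle-dose libraries ran from 17.5 to 55.4 CPM with a median of 43, and high-dose libraries from 29.8 to 40.4 CPM with a median of 33.1. Libraries 8 and 50, at 14.1 and 17.5 CPM, were the lowest of all 21 and had the 2 highest cortical marker sums (1056 and 1549 CPM). Library 46, with the next highest sum of 811 CPM, was at 28.3 CPM, within the range of the others. Library 45, the highest at 55.4 CPM, had the highest sums of oligodendrocyte markers (6333 CPM) and choroid plexus markers (4275 CPM).

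No dose changed striatal Aldh1a1 past the test. The log2 change was 0.25 (SE 0.248, adjusted p = 0.627) at the high dose, 0.47 (SE 0.248, adjusted p = 0.692) at the middle dose and 0.18 (SE 0.256) at the low dose. With libraries 8, 46 and 50 left out, chosen after seeing the data, these became 0.03, 0.53 (SE 0.137, unadjusted p = 0.000957, adjusted p = 0.585) and -0.04. Across the 21 striatal libraries Aldh1a1 went with the oligodendrocyte marker score (Pearson r = 0.66, permutation p = 0.00117, 0.0168 after Benjamini-Hochberg adjustment over 39 relations; Spearman rho = 0.60, p = 0.00498, adjusted 0.0971), with r = 0.45 without the 2 libraries farthest from the median score and r = 0.70 within dose groups. The astrocyte score gave r = 0.64 (adjusted permutation p = 0.0168; rho = 0.55, adjusted 0.123), the microglia score r = 0.57 (adjusted permutation p = 0.0365; rho = 0.47, adjusted 0.218) and the meningeal and perivascular fibroblast score r = -0.59 (adjusted permutation p = 0.0414; rho = -0.40, adjusted 0.292). By ranks none of these relations passed after adjustment. For the cortical neuron score r was -0.38 (adjusted permutation p = 0.194), rho was -0.02, and r was 0.27 without the 2 libraries farthest from the median. The part of cell composition in these values was not tested.

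None of the 10 members passed in the liver at any dose. At the high dose, 0 of 10 passed and 0 of 10 had an unadjusted p under 0.05, against 2.8% and 24.2% of the 12968 genes tested. At the middle dose it was 0 and 0 of 10 against 0% and 8.44% of all genes, and at the low dose 0 and 0 of 10 against 0.0154% and 4.1%. For a slope over dose rank it was 0 and 0 of 10 against 4.81% and 25.4%, and DESeq2 passed none in the same contrasts either. The members' median log2 change at the high dose was -0.26, with 8 of 10 below 0, beside a median of 0.02 over all genes.

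Aldh2 and its relative Aldh1b1 had the lowest high-dose estimates. Aldh2 stood at 2848, 2800, 2987 and 2075 CPM in vehicle libraries 3, 4, 7 and 8, and at 1198, 2200, 1706, 2843, 2918 and 1034 CPM in high-dose libraries 52, 53, 54, 55, 56 and 58. Libraries 52, 54 and 58 were below every vehicle library, and the others were within the vehicle range. The means were 1983 ± 807 and 2677 ± 409 CPM, a log2 change of -0.43 (SE 0.256, 95% interval -0.96 to 0.10, adjusted p = 0.298). Aldh1b1 was low in the same libraries, at 21.9 and 21.4 CPM in 52 and 58 against 46.3 to 78.5 CPM in vehicle, and its group change of -0.45 (SE 0.392) did not pass.

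Aldh1a7, the rodent copy of Aldh1a1 known as inducible by phenobarbital, stood at 113, 152, 131 and 111 CPM in vehicle libraries 3, 4, 7 and 8 and at 47.8 to 150 CPM, median 121, at the high dose. Its log2 change was -0.28. Aldh3a2, the fatty aldehyde enzyme, was the member with the highest estimate, with 281 to 624 CPM at the high dose against 290 to 363 CPM in vehicle and a log2 change of 0.33 (SE 0.233, adjusted p = 0.383). Library 52, low for most members, was at 433 CPM for Aldh3a2, above vehicle.

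The members of amino acid and carnitine metabolism were mostly lower without passing. Aldh7a1 ran from 154 to 373 CPM at the high dose against 290 to 344 CPM in vehicle (log2 change -0.27, SE 0.222), and Aldh9a1 from 195 to 390 CPM against 288 to 356 CPM (-0.25, SE 0.196). Aldh4a1 ran from 202 to 535 CPM against 289 to 413 CPM (-0.16, SE 0.285), and Aldh5a1 from 30.5 to 70.3 CPM against 55.2 to 68.7 CPM (-0.30, SE 0.195). Every one of these groups overlapped vehicle. Aldh6a1 was the least spread member at the high dose, with 220 to 310 CPM against 292 to 348 CPM in vehicle (-0.21, SE 0.164).

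Aldh6a1 was also the member whose low-dose libraries stood clear of vehicle. Libraries 23, 25, 28 and 29 were at 358, 381, 381 and 376 CPM, above vehicle libraries 3, 4, 7 and 8 at 335, 292, 300 and 348 CPM. In that contrast 2.14% of all genes had a low-dose group wholly above vehicle, and the log2 change of 0.23 (SE 0.180, adjusted p = 0.994) did not pass.

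The lower doses gave other members less clear patterns. Low-dose Aldh1b1 stood at 20.9, 42.7, 75.6 and 19.4 CPM in libraries 23, 25, 28 and 29 (log2 change -0.66, SE 0.435), and low-dose Aldh1a7 at 81.4, 60.8, 131 and 71.0 CPM (-0.56, SE 0.306, adjusted p = 0.994). Library 28 was the highest of the low-dose group for both, and it was also highest for Aldh2, at 2907 CPM against 1675 to 2295 CPM in the other low-dose libraries. At the middle dose Aldh9a1 had the largest difference after Aldh1a7, with 226 to 329 CPM (-0.29, SE 0.196, adjusted p = 0.657) against -0.30 (SE 0.277) for Aldh1a7. Aldh2 at that dose ran from 1817 to 3189 CPM with a median of 2574 CPM, around the vehicle level.

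The spread of the high-dose livers was shared between members. Library 58 was among the lowest 2 for 9 of 10 members and library 52 for 7 of 10, while library 56 was among the highest 2 for 9 and library 55 for 8. Libraries 52 and 58 also had the highest TMM scaling factors of the group (1.22 and 1.10, others 0.976 to 1.06). They had the lowest Alb (50631 and 56161 CPM, others 62923 to 91899), the lowest Cyp2e1, a pericentral enzyme (2443 and 2705 CPM, others 3147 to 7961), and the lowest Cyp2f2, a periportal enzyme (54.1 and 83.3 CPM, others 134 to 373). Not every marker followed this. Libraries 52 and 58 were the lowest pair of the group for 2 of 4 hepatocyte, 2 of 7 pericentral and 4 of 6 periportal markers. The pericentral enzyme Glul was lowest in library 54 (599 CPM, against 764 and 704 CPM in 52 and 58), and Axin2, also pericentral, was highest in 52 and 58 (24.4 and 17.9 CPM, others 5.70 to 11.1). Cyp2b10, the classic target of the receptor CAR, was at 11.4 and 26.5 CPM in them and at 50.2 to 247 CPM in the others, and how far these features bear on the members was not tested. Their total counts, 7863192 and 7747651, were within the range of the rest of the group, 7381179 to 10114871.

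**Figure D3:**
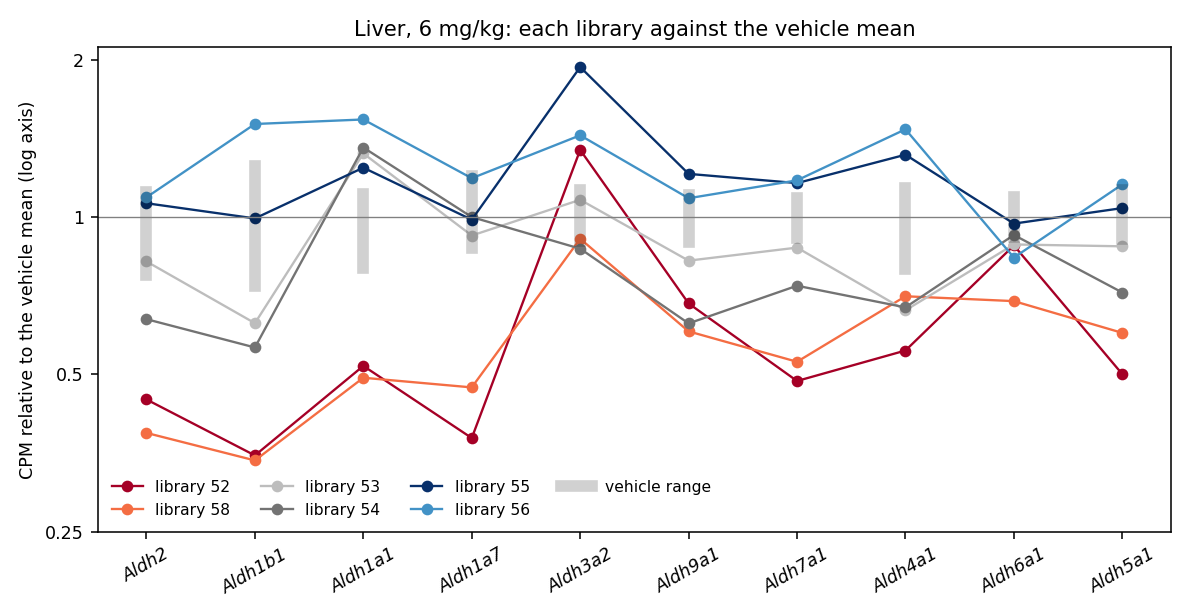
CPM of each high-dose liver library divided by the vehicle mean of the gene (log axis), a line per library, with grey bars for the range of the 4 vehicle libraries. The lines of libraries 52 and 58 run below the others for most genes, and at Aldh3a2 library 52 stands above the vehicle range.

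With libraries 52 and 58 left out, 0 of 10 members passed in the liver at the high dose, and 1 (Aldh1a1) had an unadjusted p under 0.05, beside 12.5% of all genes in that fit. The estimates moved toward 0 for several members, to -0.15 for Aldh2, 0.03 for Aldh1a7, -0.08 for Aldh5a1 and -0.02 for Aldh7a1. In the same fit 13 of 12829 genes passed, against 363 with all libraries.

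Across all 20 liver libraries the members varied together. Of the 45 pairs of members, all 45 had a positive Pearson correlation, with a median r of 0.63, and without libraries 52 and 58 the median was 0.49 with 40 positive. In the brain, 36 pairs of the 9 members other than Aldh1a7 were read, with Aldh1a1 included. The median was -0.12 in the prefrontal cortex, with 16 positive, and 0.10 in the striatum, with 22 positive. These are descriptions, since the pairs share libraries and scaling.

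Aldh1a7 was the member that followed Aldh1a1 most closely in the liver. Over 20 libraries Pearson's r was 0.79 (permutation p = 0.00012, 0.00468 after Benjamini-Hochberg adjustment over 39 relations). Spearman's rho was 0.65 (permutation p = 0.0023, adjusted 0.0897), so by ranks the relation did not pass. Without the 2 libraries farthest from the median r was 0.63, and within dose groups it was 0.86. In the liver 7 of the 45 pairs of members had a higher r than this pair, up to 0.92 for Aldh2 and Aldh7a1. Aldh1a1 and Aldh1a7 are the pair whose transcripts share such stretches, and the windows before their starts share the letters shown in capitals near the opening.

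**Figure D4:**
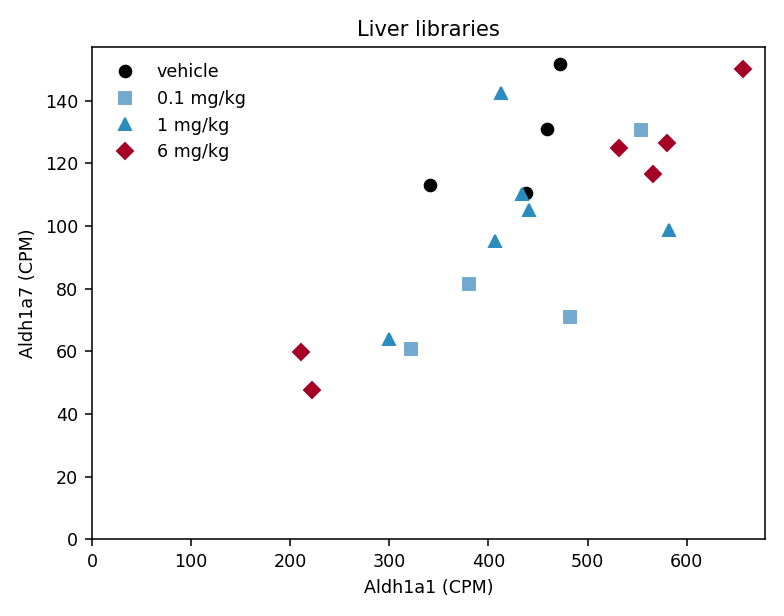
Aldh1a7 against Aldh1a1 in CPM for the 20 liver libraries, with a symbol per dose group. The 2 lowest Aldh1a1 points are high-dose libraries near 211 and 222 CPM, and 3 of the 4 low-dose squares lie below every vehicle circle on the Aldh1a7 axis.

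Ranked by Pearson's r on log2 CPM over the libraries of a tissue, the genes most like Aldh1a1 differed between tissues. In the liver they were Acox2, a peroxisomal oxidase of bile acid synthesis (r = 0.80), Aldh1a7 (0.79) and Sec13 (0.78) among 12968 genes over 20 libraries, with Aldh2 in place 65 (0.67). In the prefrontal cortex they were Tpm2, Rbm28 and Taf9b (0.78, 0.77 and 0.76), and in the striatum Asrgl1, Krcc1 and Plaat3 (0.88 each), each over 21 libraries.

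In the prefrontal cortex, with Aldh1a1 set aside as the gene chosen there, no member passed. At the high dose 0 of 9 passed and 1 of 9 had an unadjusted p under 0.05, against 0% and 9.27% of 14838 genes. At the middle dose it was 0 and 1 of 9 against 0% and 8.29%, at the low dose 0 and 0 of 9 against 0% and 6.43%, and for the slope over dose rank 0 and 1 of 9 against 0.0202% and 9.79%. DESeq2 passed none of them. Aldh1a7 entered these counts on 0 to 18 counts per library, near the floor of detection.

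The member behind these unadjusted values was Aldh4a1, which completes the conversion of proline to glutamate. Its vehicle libraries 3, 4, 7 and 8 stood at 23.5, 22.3, 28.4 and 31.8 CPM. Its middle-dose libraries ran from 18.6 to 25.1 CPM with a median of 22.3, and its high-dose libraries from 18.2 to 25.4 CPM with a median of 21.9. Both groups overlapped the lower pair of vehicle libraries, and vehicle libraries 7 and 8 were above all of them. The log2 change was -0.28 (SE 0.118, unadjusted p = 0.0265, adjusted p = 0.469) at the high dose and -0.27 (SE 0.118, unadjusted p = 0.0335, adjusted p = 0.588) at the middle dose.

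Other prefrontal members stayed near their vehicle levels, with log2 changes at the high dose between -0.17 for Aldh1b1 and 0.17 for Aldh9a1, both with intervals that span 0. Aldh2 was at 86.7 ± 15.4 against 86.6 ± 12 CPM, with a 95% interval of -0.25 to 0.26 on the log2 scale. Aldh5a1, the GABA shunt enzyme, was at 105 ± 15.2 against 108 ± 7.47 CPM, and Aldh7a1 at 81.5 ± 5.73 against 82.6 ± 4.29 CPM. The family sum was 488 ± 16.8 CPM at the high dose and 486 ± 13.9 CPM in vehicle. It includes Aldh1a1 (46.7 and 35.5 CPM), the gene chosen on this contrast, so it does not describe the other members alone.

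**Figure D5:**
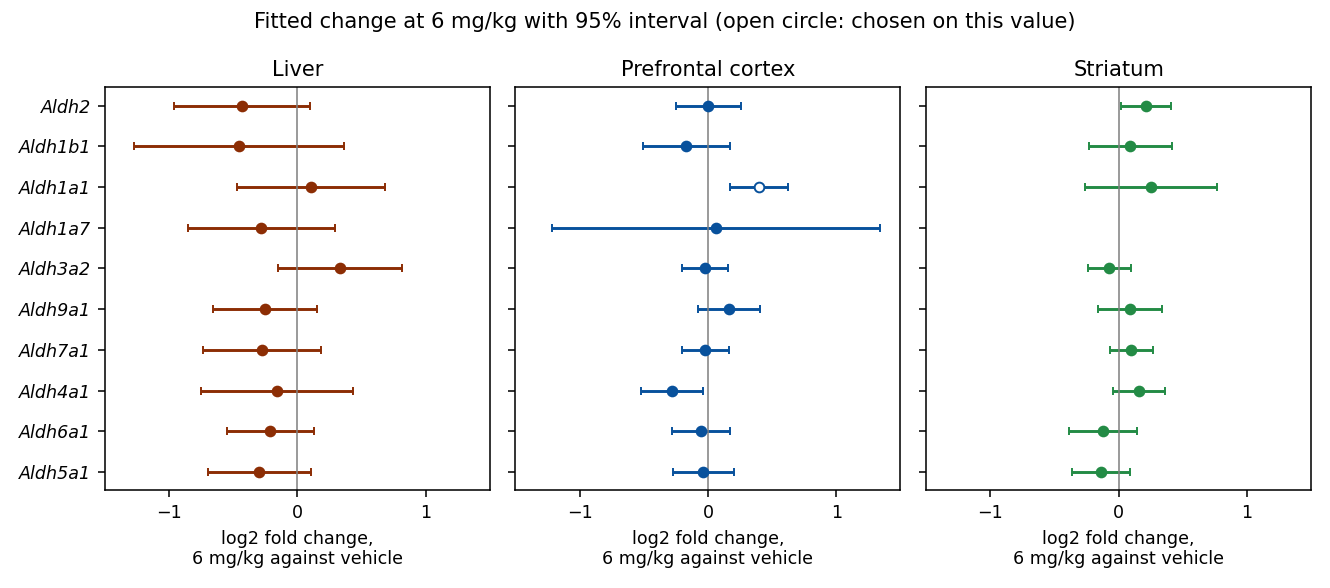
Fitted log2 fold change at 6 mg/kg against vehicle with its 95% interval for each gene and tissue; the open circle is the value on which Aldh1a1 was chosen, and Aldh1a7 is not fitted in the striatum. Each liver interval spans 0 and 8 of the 10 liver estimates lie below 0, while prefrontal Aldh4a1 and striatal Aldh2 have unadjusted intervals on 1 side of 0.

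In the striatum 9 members entered the fit of 15118 genes, Aldh1a7 having been left out by the filter with 1 to 13 counts per library. At the high dose 0 of 9 passed and 1 of 9 had an unadjusted p under 0.05, against 0% and 15.7% of all genes. At the middle dose it was 0 and 1 of 9 against 0% and 7.36%, at the low dose 0 and 0 of 9 against 0% and 2.53%, and for the slope over dose rank 0 and 0 of 9 against 0% and 13.1%. DESeq2 passed none of them. A slope over the dose in mg/kg, which weights the high dose more, passed 2 of 9, Aldh2 (0.04 per mg/kg, adjusted p = 0.0385) and Aldh4a1 (0.05 per mg/kg, adjusted p = 0.0373), in a fit where 12.3% of all genes passed.

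Striatal Aldh2 stood at 120.5, 112, 139 and 125 CPM in vehicle libraries 3, 4, 7 and 8 and at 129 to 155 CPM, median 145, at the high dose. The high-dose libraries overlapped vehicle through library 7, and the log2 change was 0.21 (SE 0.0955, unadjusted p = 0.0353, adjusted p = 0.289). Low-dose values were 121 to 127 CPM and middle-dose values 98.6 to 141 CPM.

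Striatal Aldh4a1 stood at 36.3, 35.5, 43.9 and 40.3 CPM in vehicle libraries 3, 4, 7 and 8. It ran from 27.7 to 38.2 CPM, median 31.9, at the middle dose and from 41.9 to 47.3 CPM, median 42.7, at the high dose. Both groups overlapped vehicle. The log2 change was -0.26 (SE 0.0969, unadjusted p = 0.0128, adjusted p = 0.676) at the middle dose and 0.16 (SE 0.0972, adjusted p = 0.422) at the high dose.

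The other striatal members differed little from vehicle at the high dose. Aldh5a1 was at 133 ± 21.6 against 146 ± 13.3 CPM (log2 change -0.14, SE 0.111), Aldh6a1 at 68.5 ± 9.20 against 74.4 ± 8.95 CPM (-0.12, SE 0.128), and Aldh9a1 at 47.0 ± 5.58 against 44.3 ± 4.19 CPM (0.09, SE 0.121). Over the 3 doses the changes of Aldh3a2 lay between -0.07 and 0.04, and those of Aldh9a1 between 0.00 and 0.09. None of these intervals excluded 0.

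Whether the high-dose effect differed between tissues was tested as an interaction. Between liver and prefrontal cortex 0 of 9 members passed and 0 of 9 had an unadjusted p under 0.05, against 0.899% and 20% of 14351 genes. Between liver and striatum it was 0 and 0 of 10 against 0.0277% and 14.3% of 14454 genes, with -0.65 (SE 0.339, adjusted p = 0.377) for Aldh2, whose estimate was below 0 in the liver and above 0 in the striatum. Between striatum and prefrontal cortex it was 0 and 1 of 8 against 0% and 6.43% of 15043 genes, and the member was Aldh4a1, whose change was 0.43 greater in the striatum (SE 0.149, unadjusted p = 0.00893, adjusted p = 0.746). DESeq2 passed none. The difference for Aldh1a1 was -0.30 (SE 0.361) between liver and prefrontal cortex and -0.16 (SE 0.243) between striatum and prefrontal cortex, given without a test.

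Genes that work beside the family were read from lists. In the high-dose liver 4 of the 12 tested targets of CAR, the receptor through which phenobarbital and many PCBs act, were higher and none was lower, beside 1.8% of all genes higher. Cyp2b10 rose from 1.53 ± 0.621 to 100 ± 103 CPM (log2 change 6.01, adjusted p = 0.00592). Ces2a, a carboxylesterase, rose by 1.01 (adjusted p = 0.00932), the bile acid and conjugate exporter Abcc3 by 1.07 (adjusted p = 0.0244) and the cytochrome Cyp2c37 by 1.04 (adjusted p = 0.0272). Of 14 tested targets of PPAR alpha, the fatty acid receptor, Pdk4, a brake on glucose oxidation, fell by 1.41 (adjusted p = 0.0319) with groups that overlapped, and none passed in the higher direction. At an unadjusted p under 0.05, 3 of the 14 were higher and 1 was lower, and 6 of the 12 CAR targets were higher. Over 19 alternative settings Cyp2b10 passed in 17, Ces2a in 14, Cyp2c37 in 10, Abcc3 in 9 and Pdk4 in 7, and their log2 changes kept their sign in each. The Cyp2b10 change was at least 5.02 in each. With a clock-gene covariate none of them passed (Cyp2b10 log2 change 7.42, adjusted p = 0.174), with 0 genes passing in all. That clock index ran from 2.04 to 5.45 in vehicle livers and from 5.76 to 8.60 in dosed ones, with no overlap, so the index and dosing cannot be told apart. Without vehicle library 4 Cyp2b10 had an adjusted p of 0.0514, with 3 genes passing in all.

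Single genes of the marker lists passed in the same livers. Clec4f, a Kupffer cell marker, rose from 64.0 ± 14.2 to 122 ± 38.4 CPM (n = 4 and 6). Its log2 change was 0.93 (SE 0.226, adjusted p = 0.0333 by edgeR). Its groups did not overlap, beside 3.26% of all genes wholly higher. Of the 4 Kupffer markers 1 passed. The mean log2 CPM of the 4 was 4.45 in vehicle and 5.01, 4.83 and 4.70 at 0.1, 1 and 6 mg/kg. Ddc, an enzyme of dopamine synthesis that the liver also makes, fell from 48.3 ± 13.3 to 21.3 ± 10.6 CPM (log2 change -1.18, SE 0.267, adjusted p = 0.0271 by edgeR) with groups that overlapped, and 1 of 2 tested dopaminergic markers passed, beside 0.995% of all genes lower and the 1.8% higher given above. Clec4f passed in 11 and Ddc in 10 of the 19 alternatives, and neither without libraries 52 and 58. Their part in the liver values of the members was not tested.

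Of all genes, 2.8% passed at the high dose in the liver and 24.2% had an unadjusted p under 0.05. List counts are to be read beside these shares. Lists closer to the enzymes themselves held no gene that passed there. These were the alcohol dehydrogenases (0 of 4, with 0 at an unadjusted p under 0.05), other aldehyde dehydrogenases (0 of 6, with 1), aldehyde oxidases and aldo-keto and carbonyl reductases (0 of 9, with 1), the retinoid pathway (0 of 14, with 1 higher and 4 lower), the GABA shunt (0 of 5, with 0), branched-chain and propionate breakdown (0 of 11, with 2), the proline, lysine and carnitine pathways (0 of 10, with 3), and NRF2 targets (0 of 9, with 1). The median log2 change was 0.82 for the CAR targets, 0.38 for the PPAR alpha targets, 0.37 for the other aldehyde dehydrogenases and -0.35 for the retinoid pathway, and between -0.29 and -0.07 for the other lists named here. The slope over dose rank in the liver added Rara, a retinoic acid receptor (adjusted p = 0.0383), Prodh2, which acts in hydroxyproline breakdown (adjusted p = 0.0369), and Cyp4a31, a fatty acid hydroxylase (adjusted p = 0.0480), all with higher levels at higher dose, in a fit where 4.81% of all genes passed. They passed in 14, 16 and 9 of 28 alternatives, and in neither the fit with the clock-gene covariate (3 genes passing in all) nor the one without libraries 52 and 58 (34 genes).

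Among the other aldehyde dehydrogenases, Aldh1l1, the cytosolic formyltetrahydrofolate dehydrogenase and a common astrocyte marker, stood at 897 ± 414 CPM in high-dose liver against 1259 ± 102 CPM (n = 6 and 4; adjusted p = 0.321 by edgeR), and at 81.3 ± 4.98 against 68.7 ± 7.41 CPM in the striatum (adjusted p = 0.227). Aldh3b1 had the unadjusted value in the liver, at 3.68 ± 1.35 against 2.05 ± 0.107 CPM (log2 change 0.84, SE 0.295, adjusted p = 0.0982). No gene of these lists or of the marker lists passed in either brain region at any dose, where 0% of all genes passed.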

How the data were processed

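RNA was sequenced from liver, prefrontal cortex and striatum, the brain samples being punches lysed in TRIzol and cleaned on RNeasy columns, per the labels' protocols, which name poly(A) capture or rRNA removal without saying which. The authors deposited whole-number counts per gene with no normalization; the submitters' processing notes name FastQC, HISAT2 and mm10. The counting tool, annotation and use of strand are not given in the sources used here. Entrez identifiers were named from RefSeq on GRCm38.p6, and transcripts for sequence sharing were GENCODE's on the same build. No libraries were duplicates by a chi-square check of their counts.

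Counts were fitted per tissue with edgeR 4.0.16 (R 4.3.3; filterByExpr, TMM scaling, robust quasi-likelihood test, all dose groups in 1 fit), with Benjamini-Hochberg adjustment over all genes tested and a threshold of 0.05. CPM are TMM-scaled within a tissue, or over the 12 vehicle libraries together for comparisons of tissues; log2 CPM used a prior count of 2, and levels per kilobase used merged exon length. A gene's SE is its log2 change divided by the square root of F. Correlations used permutation p-values (scipy 1.17.1). Alternatives were DESeq2 1.42.0, other scalings and filters, 1 surrogate variable (sva 3.50.0), a clock-gene covariate, the low-dose reference, and leaving out libraries. The fit was tested on simulated data, where it recovered fewer of the seeded changes in the liver than in either brain region and had a share of false calls above the threshold in the liver. The 10 members and all gene lists were chosen with earlier results of these data known. All members are named, Aldh1a1 without a test in contrasts that hold prefrontal libraries, together with list genes that passed and the 3 genes most correlated with Aldh1a1 in each tissue. In the marker lists, 2 genes are not reported here and enter no sum or score.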

Additional observations from a re-analysis of the deposited data

Results flagged for a closer look

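In 7 of the 120 combinations of gene, tissue and dose group checked, 1 library stood apart from the rest of its group by Dixon's criterion, where chance gives about 1 in 20, or 6. This check compares libraries within a group and includes Aldh1a1 in the prefrontal cortex, as a description. Library 28 of the low-dose liver was high for Aldh4a1 (453 CPM) and Aldh7a1 (387 CPM). In the prefrontal cortex, library 45 was high for Aldh1a1 at 1 mg/kg (48.2 CPM), library 46 for Aldh9a1 at 1 mg/kg (34.4 CPM) and library 55 for Aldh7a1 at 6 mg/kg (92.7 CPM). Vehicle library 7 of the prefrontal cortex was low for Aldh5a1 (96.7 CPM), and vehicle library 3 of the striatum was low for Aldh7a1 (89.3 CPM).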

How the results depend on the processing

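Of 361 counts of passing members under an alternative, 353 were equal or close to the reported count. A slope over mg/kg in the striatum passed 2 of 9 members against 0 for dose rank. Aldh1a1 is left out of every count of passing members that holds prefrontal libraries, and of the prefrontal values among the 521 below. The prefrontal family sums, the pair correlations and the check for libraries that stand apart include it. So do the 39 relations over which the correlations were adjusted. Between vehicle striatum and prefrontal cortex, 2 members passed as reported, 4 with DESeq2, 4 with library totals as the scaling, and 1 to 3 when a library was left out. Between vehicle liver and striatum 9 passed as reported and 10 with DESeq2 or library totals, and between liver and prefrontal cortex 8 passed as reported and 9 with library totals. Library totals turned Aldh5a1 between vehicle liver and prefrontal cortex to -0.44; the cause was not tested beyond the scaling itself. Of 521 values of single genes at 6 mg/kg, 494 stayed within 1 SE, 27 moved further and 0 passed. In the liver at 6 mg/kg, 363 genes passed in all, 1138 with DESeq2, 241 with no filter, 13 with the vehicle and high-dose libraries alone and 0 with the clock covariate, and from 3 (without vehicle library 4) to 1302 (without library 56) when a library was left out, with 0 members in each. Scaling by library totals and leaving out libraries 52 and 58 or 8, 46 and 50 were chosen after seeing the data.

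The title numbers recur across tissues, but no label says that a number marks an animal. Same-numbered libraries deviated together with a mean correlation of 0.00572 between liver and prefrontal cortex (2 of 20 pairs over 0.1), 0.00495 between liver and striatum (2 of 20) and 0.113 between striatum and prefrontal cortex (12 of 21). Differently numbered libraries of a group gave -0.00144, -0.00194 and -0.0233, and 4 of 20, 8 of 20 and 11 of 21 libraries correlated best with their own number. For the 2 brain regions this is a hint of a shared source, from the data and not the design. Since not every pair was over 0.1, the numbers are not used to pair libraries. With the number as a replicate block, 0 members passed in each of the 3 interactions, and 8 passed between vehicle liver and prefrontal cortex, 9 between liver and striatum and 2 between striatum and prefrontal cortex. Depth limits Aldh1a7 in the brain, at 0 to 18 counts per library.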

Other observations

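The ratio of Aldh1a7 to Aldh1a1 in the liver was noticed in the data, so its values are a description with no test. It was 0.298 ± 0.0362 in vehicle (SD, n = 4), 0.196 ± 0.0380 at 0.1 mg/kg (n = 4), 0.243 ± 0.0583 at 1 mg/kg (n = 6) and 0.231 ± 0.0277 at 6 mg/kg (n = 6). Below every vehicle library were 4 of 4, 4 of 6 and 5 of 6 libraries. The 3 comparisons share the vehicle libraries, and the part of reads that fit both genes was not tested.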
